A study of Homo sapiens with 8 samples.

Results

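The zinc finger genes of chromosome 19 were taken as the protein-coding GENCODE genes on that chromosome whose symbol is ZNF followed by a number and, in some, a letter. There were 246 such genes among 508 of that name pattern on all chromosomes, and all 246 were in the count tables of 60624 genes. Of these, 176 had enough reads to be tested, as did 18661 genes in all. The other 70 were at or near the floor, with at most 13 reads in any library, and 26 of them had no read in any library. No statement on change covers those 70.

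RNA was sequenced from A549, an established line of human lung adenocarcinoma cells, in 4 groups of 2 libraries. The groups were untreated cells (UT), cells given indisulam (IN), an aryl sulfonamide that brings the splicing factor RBM39 to the DCAF15 ubiquitin ligase for degradation, cells given SPHINX31 (SP), an inhibitor of the SR protein kinase SRPK1, and cells given both (COMBO). The study's methods give A549 cells 0.5 μM indisulam, 5 μM SPHINX31 or both for 24 h, while the deposited labels give 2 μM indisulam for 18 h. That label stands on all 8 samples, the untreated and SPHINX31 ones included, so it cannot hold as written, and the study's methods give that dose and time for another line, Panc10.05. All groups were of 1 cell line, and the 2 libraries of a group are technical replicates per the study, so p-values measure that spread and not the spread between independent cultures. Reads counted on genes ranged from 51727369 to 63186989 per library. The epithelial keratins KRT8 and KRT18 were at 3380 to 4100 CPM (counts per 1000000 counts of the TMM-scaled library size), the alveolar genes NKX2-1 and SFTPC were under 0.311 CPM, and SFTPB was at 0 counts in every library.

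Most genes of this family encode a KRAB domain at the N terminus followed by a tandem array of C2H2 zinc fingers. The fingers bind DNA, often within transposable elements, and the KRAB A box recruits TRIM28 (KAP1), which brings the histone methyltransferase SETDB1 and HP1 proteins to silence the site. The genes arose by repeated tandem duplication and lie in clusters on chromosome 19. A KRAB A box was found in the translated canonical coding sequence of 208 of the 246 members and in 145 of the 176 tested. The number of C2H2 fingers among tested members, counted by a pattern in the same sequence, ranged from 1 (ZNF428) to 33 (ZNF91), with a median of 12.5.

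The promoter windows of 5 members are shown because the genes had large changes with indisulam or because close copies of a window belonged to genes with opposite changes. The first listed window of a symbol is shown, and the start in use in A549 was not measured. The ZNF43 window lies inside the annotated gene and not at its outer 5′ end. ZNF557 had the highest rise and ZNF43 the deepest fall of the called members, ZNF430 is a rising member of the same cluster as ZNF43, and ZNF586 and ZNF587B are adjacent genes that both fell. Each run holds 250 bases before and 50 bases after a RefSeq transcript start on GRCh38.p14, read 5′ to 3′ on the gene's strand, with the ETS-type letters CCGGAAG or their reverse complement in capitals. The windows are chr19:7069453-7069752 (plus strand), chr19:21020407-21020706 (plus), chr19:21836133-21836432 (minus), chr19:57769426-57769725 (plus) and chr19:57830049-57830348 (plus).
ZNF557: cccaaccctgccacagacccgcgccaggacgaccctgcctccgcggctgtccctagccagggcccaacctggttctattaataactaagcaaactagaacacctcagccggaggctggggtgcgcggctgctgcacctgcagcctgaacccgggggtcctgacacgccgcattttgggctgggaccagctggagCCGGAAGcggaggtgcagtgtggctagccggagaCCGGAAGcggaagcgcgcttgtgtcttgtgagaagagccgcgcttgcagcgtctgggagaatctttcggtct
ZNF430: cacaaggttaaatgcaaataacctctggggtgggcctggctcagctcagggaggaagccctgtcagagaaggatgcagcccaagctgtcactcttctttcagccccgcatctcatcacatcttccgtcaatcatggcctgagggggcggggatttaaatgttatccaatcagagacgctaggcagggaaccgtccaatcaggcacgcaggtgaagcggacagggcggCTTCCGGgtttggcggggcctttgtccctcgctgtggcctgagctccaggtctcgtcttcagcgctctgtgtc
ZNF43: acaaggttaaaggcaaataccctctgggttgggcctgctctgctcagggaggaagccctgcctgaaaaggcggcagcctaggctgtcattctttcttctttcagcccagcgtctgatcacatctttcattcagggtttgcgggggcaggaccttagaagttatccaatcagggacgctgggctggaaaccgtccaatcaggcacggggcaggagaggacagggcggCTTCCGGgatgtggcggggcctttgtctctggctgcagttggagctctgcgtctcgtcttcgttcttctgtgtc
ZNF586: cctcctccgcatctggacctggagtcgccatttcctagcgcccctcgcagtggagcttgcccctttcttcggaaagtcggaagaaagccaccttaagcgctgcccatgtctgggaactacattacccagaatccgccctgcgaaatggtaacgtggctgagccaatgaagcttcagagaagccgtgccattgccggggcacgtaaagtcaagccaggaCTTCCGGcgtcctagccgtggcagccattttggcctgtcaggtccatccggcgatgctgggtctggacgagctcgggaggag
ZNF587B: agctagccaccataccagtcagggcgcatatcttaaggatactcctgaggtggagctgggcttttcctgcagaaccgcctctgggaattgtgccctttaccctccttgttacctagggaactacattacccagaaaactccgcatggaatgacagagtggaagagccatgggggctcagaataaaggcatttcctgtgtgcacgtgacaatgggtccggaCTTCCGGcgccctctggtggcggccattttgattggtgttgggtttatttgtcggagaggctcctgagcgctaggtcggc

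The ZNF43 and ZNF430 windows were identical at 246 of 306 aligned columns (80.4%), including the single CTTCCGG and both CCAAT boxes. ZNF586 and ZNF587B windows were identical at 188 of 315 columns (59.7%), while ZNF43 and ZNF557 reached 50.2%. CCGGAAG on either strand lay in 73 of the 158 tested members with a window (46.2%), in 25 of 58 untested members (43.1%), and in 17.7% of 11103 windows of other tested protein-coding genes and 10.7% of all 27305 windows. The share was 52.3% of tested members with a KRAB A box and 20% of those without. Members that were higher with indisulam held the letters in 50.9%, those that were lower in 53.3%, and those not called in 41.9%. A CCAAT box on either strand was in 50.6% of tested members, 36.3% of other tested protein-coding genes and 35.7% of all windows. TATAAA was in 1.9%, 6.12% and 12% in the same order. CCAAT was in 43.9% of rising and 53.3% of falling members. The YY1-type letters AAGATGG on either strand were in 10 of 57 rising members (17.5%), 1 of 15 falling (6.67%) and 4 of 86 uncalled (4.65%). They were in 7.11% of other tested protein-coding genes and 6.06% of all windows. No test was made between these shares. A match of letters is a description of the window and not a binding site.

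Indisulam alone raised more of the tested members than it lowered. By edgeR's quasi-likelihood test across all genes, at an adjusted p (Benjamini-Hochberg) under 0.05, 63 of 176 members rose and 18 fell, against a background of 20.1% higher and 23.5% lower among all 18661 genes. In percent this was 35.8 higher and 10.2 lower. The median log2 fold change of the members was 0.23 (quartiles -0.04 and 0.48), against -0.0041 for all genes tested, and 123 members were above 0. The changes were small: the median standard error was 0.122, the median change was 0.52 among members that rose and -0.66 among those that fell, and only 3 rose and 5 fell by 1 log2 unit or more. In bulk RNA a change in the level per cell and a change in the share of cells that express a gene cannot be told apart.

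Members with a KRAB A box made up 57 of the 63 rises. In IN against UT, 57 of the 145 KRAB members rose (39.3%) and 13 fell (8.97%), with a median log2 fold change of 0.29. Of the 31 members without a box 6 rose (19.4%) and 5 fell (16.1%), with a median of -0.0021. Over all genes 20.1% were higher and 23.5% lower, so rises without a box were near that share. Other genes gave other splits. Of 803 other protein-coding genes of chromosome 19, 117 rose (14.6%) and 204 fell (25.4%), with a median of -0.06. Of 232 ZNF-number genes on other chromosomes, 64 rose (27.6%) and 38 fell (16.4%), with a median of 0.04. These are descriptions of the lists, and no test between lists was made. The tested members with and without a box differed in more than the box. Their median GC content was 42.4% and 62.3%, median exon number 5 and 3, and median log2 CPM 1.95 and 3.21. Whether the split goes with the box or with these features was not tested. Members differed from other genes in base composition, with a median GC content of 42.8% of the transcript against 48.5% for all genes tested and 60.9% for the rest of chromosome 19. Offsets for GC content left 69 members higher and 18 lower, with a median of 0.25. Set beside protein-coding genes outside the family of the same GC range, the 42 members under 40% GC had a median of 0.24 against 0.03. The 79 members from 40% to under 45% had 0.35 against 0.03. The 55 members at 45% or more had 0.05 (15 higher, 8 lower) against -0.02 (1673 higher and 2183 lower of 8661).

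**Figure D1:**
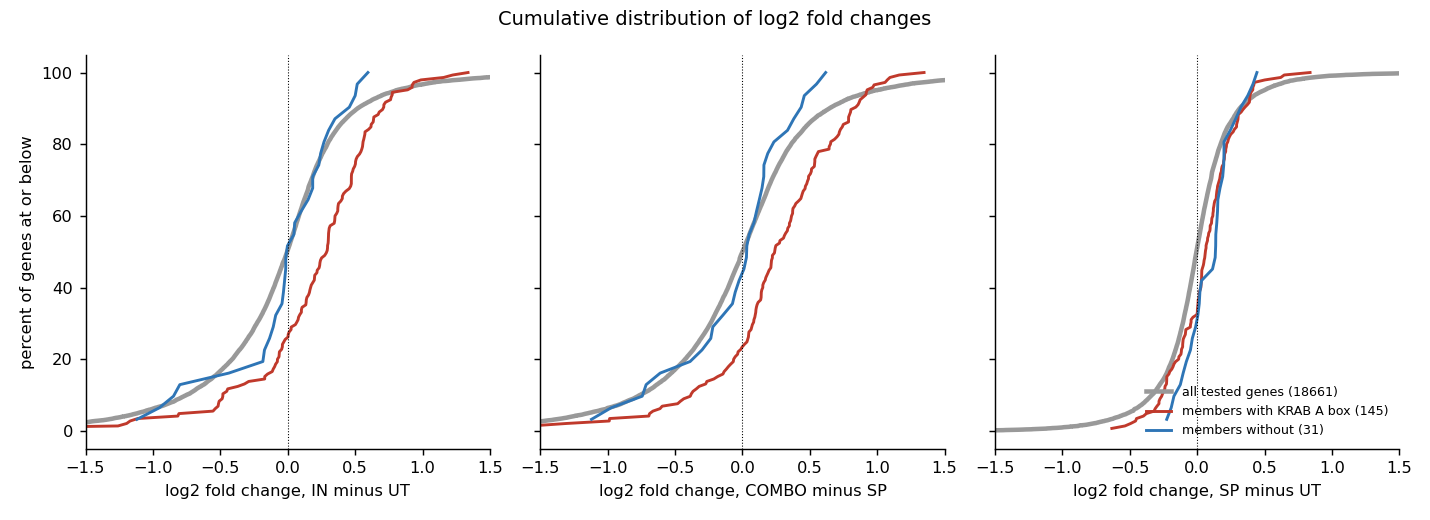
Cumulative distributions of log2 fold changes for all 18661 tested genes, the 145 tested members with a KRAB A box and the 31 without, in 3 comparisons. The line of the KRAB members lies to the right of all genes in IN minus UT (medians 0.29 and -0.0041) and in COMBO minus SP (0.24 and 0.00015), and less so in SP minus UT (0.06 and -0.0064).

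Of the members called in IN against UT, 17 averaged under 1 on the log2 CPM scale, and the rises and falls ranked next, here and in the other comparisons, are of those at 1 or more whose libraries did not overlap. ZNF557, a KRAB zinc finger gene at chr19:7069703-7087968, had the highest rise. Its level was 5.70 and 5.57 CPM in UT, 15.3 and 13.2 in IN, 6.61 and 6.15 in SP, and 16.9 and 15.6 in COMBO. Both libraries with indisulam were well above those without it, and no libraries of the groups overlapped. The log2 fold change was 1.34 ± 0.09 (SE; adjusted p = 1.8e-07) for IN against UT and 1.35 ± 0.09 (adjusted p = 9.7e-08) for COMBO against SP.

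The pair ZNF229 and ZNF285 lie next to each other on the minus strand near 44.4 Mb, and both rose with indisulam. ZNF229 was at 3.58 and 3.56 CPM in UT, 7.12 and 7.03 in IN, 4.69 and 4.72 in SP, and 8.10 and 8.30 in COMBO, so that it was lowest in UT and highest in COMBO, with no overlap between any groups. Its log2 fold change was 0.99 ± 0.09 (adjusted p = 2.6e-06) with indisulam and 0.40 ± 0.10 (adjusted p = 0.023) with SPHINX31. ZNF285 was at 2.05 and 2.06 CPM in UT and 3.90 and 3.91 in IN (0.92 ± 0.12, adjusted p = 4.2e-05), and at 2.58 and 2.46 in SP, where it was not called (0.29 ± 0.13, adjusted p = 0.18). Both share exonic positions on the same strand with a non-coding gene (ENSG00000267188), so that reads in the overlap can be lost to counting as ambiguous.

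ZNF227, of higher level, went from 20.8 and 20.9 CPM in UT to 35.9 and 35.1 in IN (0.77 ± 0.07, adjusted p = 1e-06) and from 21.2 and 22.4 in SP to 37.6 and 41.4 in COMBO. Its exons overlap those of ZNF235 on the opposite strand. ZNF823, near 11.7 Mb, was at 4.64 and 4.08 CPM in UT and 7.02 and 7.81 in IN (0.76 ± 0.11, adjusted p = 9.5e-05). ZNF430 was at 1.59 and 1.53 CPM in UT and 2.85 and 2.28 in IN (0.73 ± 0.19, adjusted p = 0.0068). The ZNF430 libraries did not overlap, but the gene was no longer called (log2 fold change 0.55) when the first IN library was left out.

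ZNF43 fell the most of all tested members. This gene, with 19 fingers and a KRAB box, lies at chr19:21804946-21852125 on the minus strand, and had 267 and 246 reads in UT, 47 and 40 in IN, 213 and 236 in SP, and 41 and 48 in COMBO. In CPM these were 4.32, 4.13, 0.808, 0.785, 3.93, 4.03, 0.717 and 0.839. Every library with indisulam was far under every library without it. The log2 fold change was -2.40 ± 0.15 (adjusted p = 5.3e-08) for IN against UT and -2.35 ± 0.15 (adjusted p = 4.3e-08) for COMBO against SP. ZNF430, whose promoter window is shown above beside that of ZNF43, changed in the opposite direction in both comparisons, with 0.98 ± 0.19 (adjusted p = 0.00079) for COMBO against SP.

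ZNF587B and ZNF586 fell together near 57.8 Mb. ZNF587B was at 13 and 12.1 CPM in UT, 5.86 and 5.08 in IN, 13.8 and 14.2 in SP, and 4.60 and 4.82 in COMBO. Its log2 fold change was -1.19 ± 0.09 (adjusted p = 4.1e-07) for IN and -1.57 ± 0.09 (adjusted p = 2.5e-08) for COMBO against SP. ZNF586 was at 4.32 and 4.13 CPM in UT and 1.96 and 1.79 in IN (-1.17 ± 0.12, adjusted p = 7.1e-06). The exons of these 2 genes overlap on the same strand, also with the gene ENSG00000268750, so the split of reads between them is uncertain.

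The remaining falls ranked by that rule were of lower size. ZNF653, which has no KRAB box, was at 3.74 and 3.15 CPM in UT and 1.93 and 1.90 in IN (-0.85 ± 0.14, adjusted p = 0.00034), and 19.1% of its 75-base words occur in other genes. ZNF559 went from 7.25 and 6.89 CPM to 4.18 and 3.85 (-0.82 ± 0.10, adjusted p = 2.3e-05), and its exons overlap the read-through gene ZNF559-ZNF177. ZNF461 went from 4.42 and 4.56 CPM to 3.34 and 2.92 (-0.52 ± 0.12, adjusted p = 0.0034) and changed by -0.99 ± 0.12 in COMBO against SP (adjusted p = 1.5e-05).

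**Figure D2:**
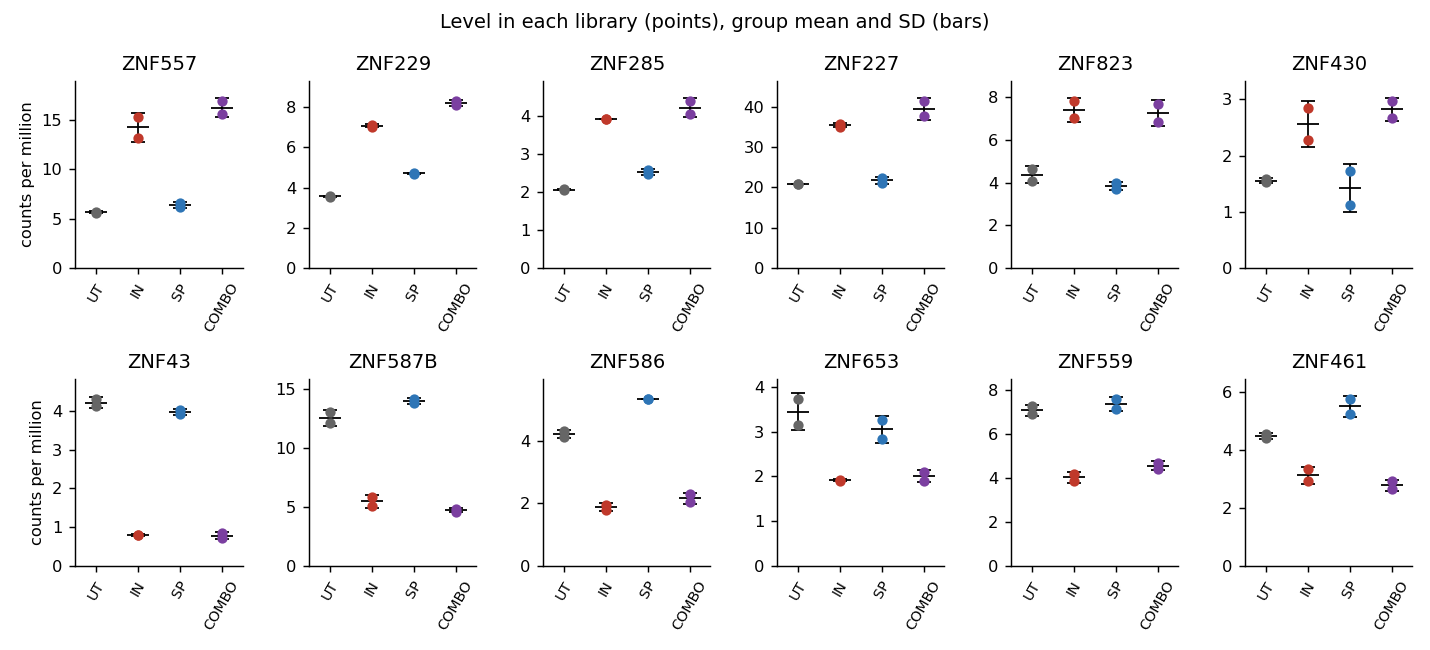
CPM of the 6 highest rises (top row) and the 6 deepest falls (bottom row) in IN against UT among called members that averaged 1 or more on the log2 CPM scale. Points are the 2 libraries of each group, bars the mean and SD (n = 2). In each panel the IN points lie on one side of the UT points, and the COMBO points on the same side of the SP points.

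The members were next set in order along the chromosome, and a new cluster was begun wherever neighbouring members lay more than 1 Mb apart. This gave 16 clusters, 7 of which held at least 10 tested members, 158 in all. Rises in IN against UT were not even between them, from 16.7% to 69.2% of the tested members in those 7. Over all genes 20.1% were higher and 23.5% lower. The order of the 7 by this share was not the same in COMBO against SP, given below. In the cluster from ZNF575 to ZNF296 (chr19:43525497-45076478), all 24 members were tested, 13 rose and 1 fell in IN against UT, and the median log2 fold change was 0.47. In the cluster from ZNF175 to ZNF331 (chr19:51571283-53580269), 29 of 39 were tested, 12 rose and none fell, with a median of 0.35.

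In the ZNF575 to ZNF296 cluster the named rises of ZNF227, ZNF285 and ZNF229 stood beside those of ZNF221, ZNF155, ZNF230, ZNF222, ZNF224, ZNF225, ZNF226, ZNF235 and ZNF233, and of ZNF428. Members named cluster by cluster outside the fixed rule were chosen after their values were seen. ZNF221 was at 1.00 and 1.07 CPM in UT and 2.37 and 2.26 in IN (1.16 ± 0.17, adjusted p = 0.00014). ZNF224, which is known to repress the aldolase A gene and to bind WT1, was at 16.6 and 17.2 CPM in UT and 21.8 and 19.5 in IN (0.30 ± 0.10, adjusted p = 0.024). ZNF226 was at 15.7 and 14.9 CPM in UT and 21.8 and 21.1 in IN (0.49 ± 0.08, adjusted p = 0.00018). ZNF575, at the edge of the cluster and without a KRAB box, was the member that fell, from 2.22 and 2.30 CPM to 1.08 and 1.26 (-0.95 ± 0.17, adjusted p = 0.00052). ZNF223 and ZNF284 share 62% and 43% of their 75-base words with other genes, and their changes of 0.55 and 0.56 did not pass the test.

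In the ZNF175 to ZNF331 cluster 27 of the 29 tested members were above 0, and the changes ran from -0.81 in ZNF331, which did not pass the test, to 0.70 in ZNF600. ZNF350, also known as ZBRK1 and known to bind BRCA1, was at 4.21 and 4.51 CPM in UT, 6.16 and 6.32 in IN, and 6.72 and 7.76 in COMBO (IN against UT 0.52 ± 0.11, adjusted p = 0.0017). ZNF841 was at 5.11 and 4.96 CPM in UT and 8.65 and 7.46 in IN (0.68 ± 0.10, adjusted p = 0.00012). In both genes all 4 libraries with indisulam were above all 4 without it.

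The cluster from ZNF557 to ZNF846 (chr19:7069703-9793180) held 13 tested members, of which 9 rose and 1, ZNF559, fell, with a median of 0.30. ZNF561 in this cluster was at 21.5 and 22.9 CPM in UT and 35.3 and 32.7 in IN (0.62 ± 0.07, adjusted p = 5.8e-06). The last cluster, from ZNF628 to ZNF446 at the end of the long arm (chr19:55476617-58481230), was mixed. Of its 49 tested members 16 rose (32.7%) and 8 fell, so that rises were still above the 20.1% of all genes. Its median was 0.08, and its members ranged from -1.19 (ZNF587B) to 1.22 (ZNF470). The pericentromeric cluster from ZNF101 to ZNF254 (chr19:19668796-24129968) had 37 members, only 15 of them tested. Of these 3 rose (20%, near the 20.1% of all genes) and 1 fell (ZNF43), with a median of 0.03. The 5 members from ZNF302 to ZNF792, all tested, are too few to set against the shares of all genes. They included no rise and 2 falls. These were ZNF302, from 30.1 and 32.5 CPM to 24.4 and 21.2 (-0.45 ± 0.08, adjusted p = 0.00048), and ZNF30, from 6.55 and 7.09 CPM to 4.78 and 4.96 (-0.49 ± 0.10, adjusted p = 0.0014).

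**Figure D3:**
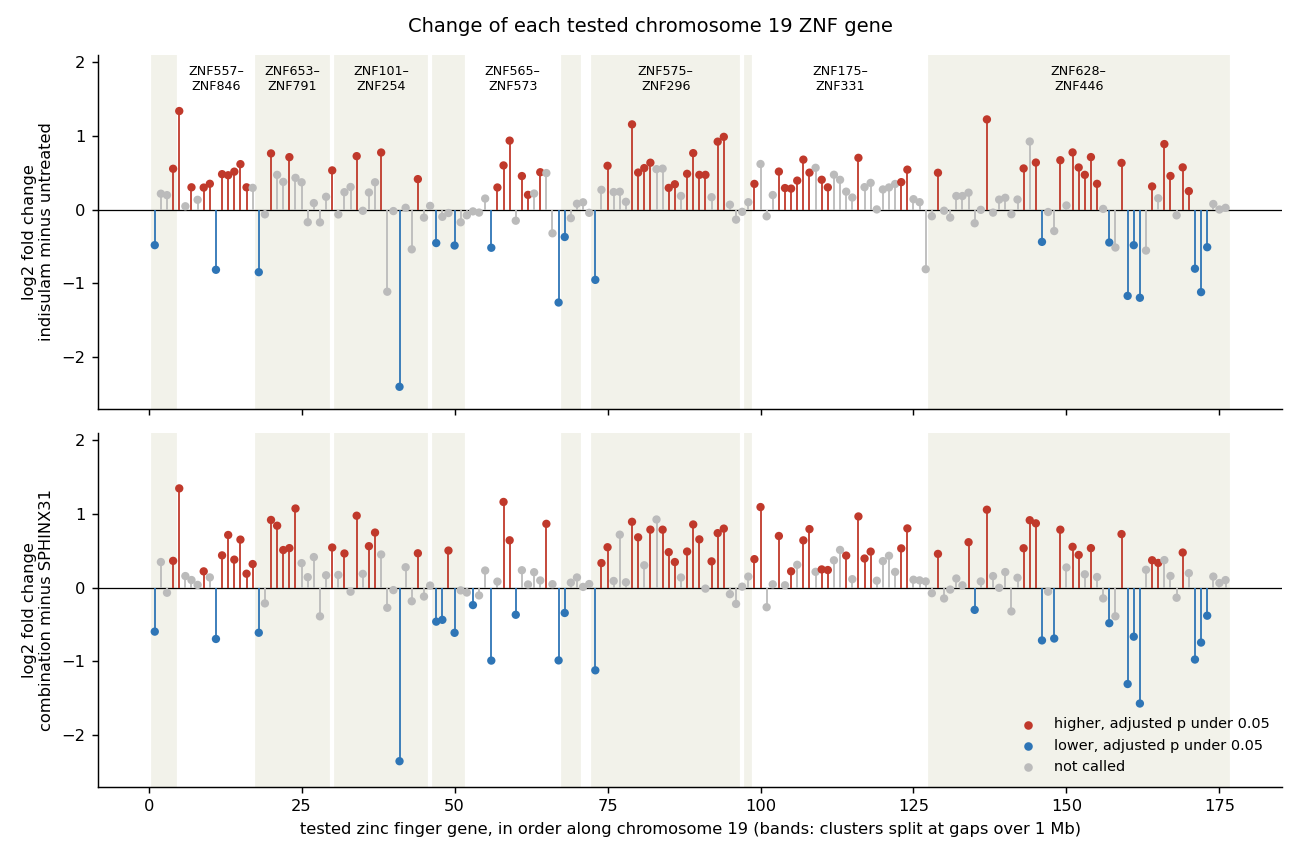
Log2 fold change of each of the 176 tested members in order along chromosome 19, for IN minus UT (top) and COMBO minus SP (bottom), coloured by call, with shaded and white bands for the clusters. The ZNF575 to ZNF296 band holds 13 rises and 1 fall in the upper panel and 14 and 1 in the lower, and ZNF43 has the lowest point in both.

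The change with indisulam can be read a second time from libraries that the first comparison does not set against each other, by setting COMBO against SP. The fold changes rest on separate libraries. The calls do not, since 1 fit over all 8 libraries gave both a shared estimate of spread. In COMBO against SP 66 of the 176 members were higher and 23 lower, against a background of 23.4% and 26.5%. The median log2 fold change was 0.19 against 0.00015 for all genes. With a KRAB A box 60 of 145 rose (41.4%) and 16 fell (11%), and without it 6 of 31 rose (19.4%) and 7 fell (22.6%). The 2 comparisons shared 65 called members, all with the same direction in both. The 47 members that rose in both were 74.6% of the rises in IN against UT and 71.2% of those in COMBO against SP, and the 18 that fell in both were 100% and 78.3% of the falls. Over all genes the same shares were 81.1% and 69.8% of the rises and 84.9% and 75.3% of the falls. Over the members the Pearson correlation of the 2 log2 fold changes was 0.89, and over all genes tested it was 0.846. The family followed the same course in both settings, as genes at large did. The cluster of ZNF575 to ZNF296 gave 14 rises and 1 fall here, and that of ZNF175 to ZNF331 gave 14 and none. Shares of rises in IN against UT and here were 69.2% and 61.5% in ZNF557 to ZNF846. Those of ZNF628 to ZNF446 were 32.7% and 28.6%. The shares moved more in ZNF653 to ZNF791 (16.7% and 41.7%), ZNF565 to ZNF573 (37.5% and 18.8%) and ZNF101 to ZNF254 (20% and 33.3%). Among members averaging 1 or more on the log2 CPM scale, ZNF548 was one of the 6 highest rises, from 1.68 and 2.15 CPM in SP to 3.39 and 3.65 in COMBO (0.87 ± 0.16, adjusted p = 0.00052). ZNF17 was one of the 6 deepest falls of the same members, from 4.19 and 3.97 CPM in SP to 2.57 and 2.39 in COMBO (-0.71 ± 0.12, adjusted p = 0.00031).

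**Figure D4:**
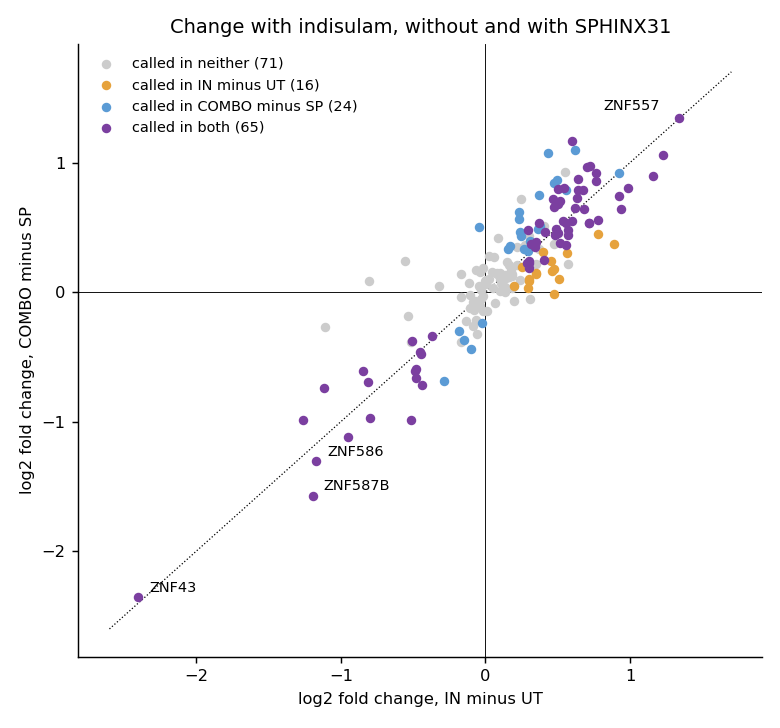
Log2 fold change of the 176 tested members in IN minus UT (x axis) and COMBO minus SP (y axis), which share no library, coloured by call, with the line of equality dotted. The 65 members called in both lie at the lower left and the upper right, and ZNF43 lies at the far end near -2.40 and -2.35.

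With both compounds 80 members were higher than in UT and 18 lower, against 23.8% and 26.3% of all genes, and the median log2 fold change was 0.27. This comparison shares the UT libraries with the one for indisulam alone, so its values are given beside those and not as a second line of evidence. Among members averaging 1 or more on the log2 CPM scale, the leading rises were ZNF557 (1.53 ± 0.09, adjusted p = 3e-08), ZNF229 (1.20 ± 0.09, adjusted p = 2.4e-07), ZNF548 (1.07 ± 0.16, adjusted p = 0.0001), ZNF285 (1.03 ± 0.12), ZNF227 (0.92 ± 0.07) and ZNF430 (0.86 ± 0.18). The leading falls of the same members were ZNF43 (-2.44 ± 0.15, adjusted p = 2.6e-08), ZNF587B (-1.41 ± 0.09), ZNF586 (-0.97 ± 0.12), ZNF653 (-0.78 ± 0.14), ZNF461 (-0.69 ± 0.12) and ZNF559 (-0.64 ± 0.10). The summed level of the tested KRAB members was 893 and 916 CPM in UT, 1071 and 1032 in IN, 938 and 981 in SP, and 1090 and 1108 in COMBO. The sum for members without a box was 579 and 579, 602 and 618, 643 and 634, and 616 and 639 CPM in the same order. A large part of that second sum is the single gene ZNF146, whose levels are given below. The KRAB sum was higher in every library with indisulam than in any without it.

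SPHINX31 alone moved few members. In SP against UT 7 were higher and none lower, against 4.94% higher and 3.67% lower of all genes, which as a share (3.98%) is near the background. The count was not stable, with 16 called (14 higher, 2 lower) under GC offsets, 13 with total counts alone, 1 when either UT library was left out, 2 without the first SP library and 4 without the second. The median log2 fold change was 0.07, against -0.0064 for all genes. The 3 highest rises were in ZNF772 (3.30 and 2.77 CPM in UT, 4.10 and 4.50 in SP, 0.50 ± 0.13, adjusted p = 0.032), ZNF329 (4.61 and 4.24 CPM in UT, 6.59 and 5.47 in SP, 0.44 ± 0.11, adjusted p = 0.024) and ZNF383 (4.79 and 4.83 CPM in UT, 6.46 and 6.44 in SP, 0.42 ± 0.10, adjusted p = 0.019). The others were ZNF229, ZNF875, ZNF134 and ZNF181. The calls of ZNF772 and ZNF383 were lost on leaving out any 1 UT or SP library, and that of ZNF329 on leaving out either UT library or the first SP library. On top of indisulam, COMBO against IN, 1 member rose and none fell, against 3.17% and 4.32% of all genes. That was ZNF71, at 4.78 and 5.83 CPM in IN and 7.14 and 7.09 in COMBO (0.43 ± 0.11, adjusted p = 0.03), a call lost without the first IN library (0.29) and without either COMBO library. None of the 7 members raised by SPHINX31 alone was called here, although 6 of the 7 kept the same sign, with the highest change in ZNF875 (0.23 ± 0.07, adjusted p = 0.053). Over all genes 320 rose in both comparisons, which is 34.7% of the rises with SPHINX31 alone.

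No member was called as departing from the sum of the 2 single changes. In edgeR's test of the interaction 0 of 176 members were called, as were 0% of all genes, with 8 members at an unadjusted p under 0.05 and no member called by DESeq2. The smallest p-values were those of ZNF587B (-0.38 ± 0.13, adjusted p = 0.49), ZNF181 (-0.34 ± 0.12, adjusted p = 0.49) and ZNF461 (-0.47 ± 0.17, adjusted p = 0.5). With 2 libraries a group the standard errors of this contrast were larger than those of the single comparisons.

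The level per length, in CPM per kb of exon, set a few members apart. ZNF146, a gene of 10 fingers without a KRAB domain, was the highest in UT at 54.5, followed by ZNF428 (11.2), ZNF581 (8.90), ZNF580 (8.14) and the KRAB gene ZNF317 (7.78). ZNF146 was at 219 and 232 CPM in UT, 226 and 219 in IN, 253 and 266 in SP, and 208 and 232 in COMBO, and its change with indisulam was -0.02 ± 0.06 (adjusted p = 0.78). ZNF428, with 1 finger, rose from 18.5 and 16.3 CPM in UT to 25.7 and 26.8 in IN (0.60 ± 0.07, adjusted p = 2.7e-05). ZNF317 rose from 38.7 and 39.9 to 47.9 and 48.8 CPM (0.30 ± 0.05, adjusted p = 0.00058). ZNF581 and ZNF580 overlap each other and CCDC106 on the same strand, and neither was called with indisulam alone. ZNF581 rose in COMBO against UT, from 15.6 and 13.5 to 22.8 and 22.8 CPM (0.65 ± 0.12, adjusted p = 0.00065).

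Members with known targets were mostly low or did not pass the test. ZNF91, known to silence SVA elements, was at 0.858 and 0.738 CPM in UT and 0.585 and 0.510 in IN (-0.54 ± 0.25, adjusted p = 0.099). ZNF93, known to bind an older L1 element, and ZNF382 had 0 counts in every library, which allows at most 0.0485 to 0.0589 CPM per library (3 counts, counting error only). ZNF568 had at most 3 reads in any library. ZNF274, which recruits SETDB1 to the 3′ ends of zinc finger genes themselves, was at 18.8 and 19.2 CPM in UT, 17.7 and 18.3 in IN, 20.1 and 21.2 in SP, and 18.9 and 18.7 in COMBO (IN against UT -0.08 ± 0.07, adjusted p = 0.37). ZNF331, an imprinted gene, was under 0.46 CPM in all libraries, ZNF649 was under 0.54, and ZNF765 was at 7.44 and 7.63 CPM in UT and 8.41 and 8.22 in IN (0.14 ± 0.09, adjusted p = 0.24).

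The partners through which KRAB domains act were read from a list of 35 genes, all tested. In IN against UT 8 were higher and 8 lower (22.9% each, against 20.1% and 23.5% of all genes), with a median of -0.03. TRIM28 itself did not pass the test there (0.11, adjusted p = 0.12) and rose in COMBO against SP (0.20, adjusted p = 0.0081). SETDB1 passed in neither (-0.01, adjusted p = 0.9, and 0.07, adjusted p = 0.35). TASOR, the scaffold of the HUSH silencing complex, fell the most of the list, with a log2 fold change of -1.14 (adjusted p = 2e-08) for indisulam alone and -1.29 (adjusted p = 4.4e-09) in COMBO against SP. Its HUSH partner MPHOSPH8 rose (0.24, adjusted p = 0.006), as did ATF7IP, the SETDB1 partner (0.35, adjusted p = 0.00097). The DNA methyltransferases DNMT3B (-0.71, adjusted p = 0.0022) and DNMT1 (-0.63, adjusted p = 1.2e-06) fell, while DNMT3A rose (0.32, adjusted p = 0.0055). The histone methyltransferase SUV39H2 fell (-0.55, adjusted p = 0.0001) and its relative SUV39H1 rose (0.21, adjusted p = 0.013). Of the HP1 genes, CBX1 (0.24, adjusted p = 0.0023) and CBX3 (0.19, adjusted p = 0.0082) rose and CBX5 fell (-0.20, adjusted p = 0.0072) in IN against UT. In SP against UT none of the list was higher and 6 were lower (17.1%, against 3.67% of all genes), among them the HP1 gene CBX5 (-0.35, adjusted p = 0.0013). In COMBO against UT 5 were higher and 14 lower (14.3% and 40%, against 23.8% and 26.3%), and in COMBO against IN none was higher and 5 were lower (14.3%, against 4.32%). In COMBO against SP, 11 were higher and 12 lower (31.4% and 34.3%, against 23.4% and 26.5%). The list was chosen with earlier results of these data known. Its median log2 CPM was 5.93, against 3.42 for all genes tested, so these shares do not compare genes of like level. Whether the falls go with the partner role or with the level was not tested.

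Across the 176 tested members, Spearman coefficients of the change with indisulam are given as descriptions. They were 0.04 with the number of fingers, 0.20 with the number of exons, 0.14 with transcript length, -0.15 with GC content and -0.04 with average level. Such a coefficient can miss a relation that is not steady. The medians of the 3 GC ranges given above, from low to high GC, were 0.24, 0.35 and 0.05. Sequence shared between copies was limited, since the median member shared 0.207% of its 75-base words with other genes and 10 shared over 20%. Without those 10, 62 of 166 members rose and 18 fell in IN against UT. In 66 tested members an exon overlaps another gene on the same strand and in 57 on the opposite strand. Among the 69 with neither, 27 rose and 6 fell (median 0.22). Over all genes tested 20.1% were higher and 23.5% lower in IN against UT. Reads on chromosome 19 outside annotated exons were 2.88% and 3.22% of its reads in UT, 4.68% and 3.71% in IN, 2.54% and 2.81% in SP, and 4.66% and 3.77% in COMBO, higher in each library with indisulam. Their part in the rise of the family was not tested.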

How the data were processed

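Polyadenylated RNA from A549 cells was sequenced in 8 libraries, 2 for each of UT, IN, SP and COMBO. Per the labels, the deposited values are raw read counts per Ensembl gene, and the submitters' processing notes name HISAT2 2.2.1, HTSeq and GRCh38. The annotation release and the strand setting are not given in the sources used here. Library preparation was stranded, and overlapping genes are named as uncertain. Rows that name no gene (reads outside exons, ambiguous or not unique) were left out of the library sizes, and 83.0% to 86.0% of the listed reads were on genes.

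Counts were filtered with filterByExpr, scaled with TMM and fitted with edgeR 4.0.16 (quasi-likelihood, R 4.3.3) over all 8 libraries with group as the only term. P-values were adjusted over all 18661 genes, with a threshold of 0.05. A ± beside a log2 fold change is its standard error, and CPM values use TMM-scaled library sizes. Gene positions and exons came from GENCODE 44 on GRCh38. No protein table was at hand, so the box and the fingers were searched by patterns in the translated canonical coding sequences. A pattern can miss degenerate boxes and fingers and can match other stretches. Promoter windows are those of RefSeq (GRCh38.p14), matched by symbol for 216 of 246 members, and the first listed window of a symbol was used. Partner genes and members were chosen with earlier results of these data known. Members named for a comparison were called there, averaged 1 or more on the log2 CPM scale and showed no overlap between the libraries of the 2 groups. They were ranked by size: the first 6 in each direction for IN against UT, COMBO against UT and COMBO against SP, and the first 3 for SP against UT and COMBO against IN. The 3 smallest p-values of the interaction, the 5 highest levels per kb in UT and 9 members of known role were added. Alternatives were another size factor (RLE), total counts alone, DESeq2 1.42.0, looser and stricter filters, only the libraries compared, a replicate block, GC offsets over 50 bins, a threshold of 0.1 and leaving out each library. The procedure was tested on simulated data. With about 212 to 252 reads in the median tested member per library, depth limited the members under 1 CPM, and intervals from technical replicates cover no variation between cultures.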

Additional observations from a re-analysis of the deposited data

Results flagged for a closer look

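Reads on chromosome 19 that fell outside annotated exons were not part of any gene count. Their share of the chromosome's reads was 3.71% in the lower of the 2 IN libraries and 3.77% in the lower of the 2 COMBO libraries, both above the higher UT library (3.22%). Over the whole genome the share was 3.94% and 4.34% in UT, 5.48% and 4.49% in IN, and 5.87% and 4.87% in COMBO. The share of reads that fit more than 1 gene of chromosome 19 was 5.62% in the lower IN library, above the 4.98% of the higher UT library, while it was 5.72% and 4.63% in SP and 4.67% and 4.65% in COMBO, so that 1 library without indisulam was as high. Groups of 2 libraries were too small for a search for single libraries that stand apart.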

How the results depend on the processing

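For IN against UT, COMBO against UT and COMBO against SP, the counts of members called stayed within 1.5 times of those given under every alternative run, DESeq2 included. The shares of all genes called in those runs are not given here. The counts in this section thus do not show whether the difference from all genes held. The medians of these 3 comparisons stayed above 0. With all libraries kept, they moved by more than the spread between libraries with total counts alone (0.32 in COMBO against UT). They did so too with the looser filter (0.16 in COMBO against SP), which tested 220 members in place of 176. With 1 library left out, the IN against UT median moved so without the first UT library (0.20) or either IN library (0.19 and 0.26), and that of COMBO against SP without the second SP library (0.24) or the first COMBO library (0.22). For SP against UT, 16 members were called at a threshold of 0.1, 13 with total counts alone (median 0.10), 16 with GC offsets and 13 with GC offsets and a replicate block. For COMBO against IN, 5 were called at 0.1, 4 with total counts alone (median 0.11), 3 with DESeq2, 4 with the looser and 2 with the stricter filter, 2 with only the libraries compared, 5 with GC offsets and 4 with GC offsets and a replicate block. The interaction called 0 members in all of them. With total counts alone the median of all genes moved as well. It was 0.05 in COMBO against UT, 0.03 in SP against UT and 0.05 in COMBO against IN. A gap of 0.5 Mb split the members into 20 clusters in place of 16.

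Leaving out 1 library at a time gave 57 to 81 members called in IN against UT (median 0.19 to 0.26), 1 to 9 in SP against UT (median 0.05 to 0.07), 69 to 105 in COMBO against UT (0.26 to 0.28), 68 to 92 in COMBO against SP (0.18 to 0.24), 0 to 5 in COMBO against IN (0.040 to 0.075) and 0 in the interaction (-0.026 to 0.033). A group left with 1 library is assumed to vary like the others. In SP against UT, 1 member was called without either UT library, 2 without the first SP library and 4 without the second. In COMBO against IN, none was called without either COMBO library, 4 without the second IN library and 5 without either SP library.

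The replicate numbers did not pair the samples, with correlations of deviations from -0.488 (UT and IN) to 0.404 (UT and SP). The replicate block gave 80 members in IN against UT, 6 in SP against UT, 95 in COMBO against UT, 87 in COMBO against SP, 1 in COMBO against IN and 0 in the interaction. With the IN numbers exchanged, an alternative chosen after seeing the data, a replicate block gave 86, 14, 102, 94, 5 and 0. ZNF772 was not called in SP against UT with DESeq2 or with the block. The cause of these changes was not tested.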
